A study of Mus musculus with 4 samples.

Results

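Mitochondria fuse, divide, are cleared when damaged and are made anew, and the 10 genes described here encode core parts of that cycle. They were taken as a named list (*Mfn1*, *Mfn2*, *Opa1*, *Dnm1l*, *Fis1*, *Pink1*, *Bnip3*, *Bnip3l*, *Tfam* and *Nrf1*), all 10 were found, and they are 10 of the 49550 genes annotated on the chromosomes analyzed. ATAC-Seq, in which a transposase cuts DNA that is not packed away in chromatin, was done on sorted bone marrow HSCs of C57BL/6 mice. The controls, Cpt1a fl/fl mice that the labels call WT, gave 2 libraries. Cpt1a Δ/Δ (KO) mice, in which Vav1-Cre deletes *Cpt1a* across the hematopoietic system, gave the other 2. CPT1A carries long-chain fatty acids into mitochondria for oxidation, and the study asked whether its loss changes chromatin accessibility. The labels name the cells ltHSC and the study's text HSPCs, and how many mice went into a library is not given in the sources used here. The study's methods state adult mice of either sex as the rule, with no separate age for these libraries. The deposited data are 1 list of peaks per library, with no read counts, so the depth is unknown.

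Mitofusins 1 and 2 (*Mfn1*, *Mfn2*) join the outer membranes of neighbouring mitochondria, and the dynamin-like GTPase OPA1 joins the inner membranes and shapes the cristae. Fission is driven by DRP1, the product of *Dnm1l*, which is recruited to the outer membrane where FIS1 is one of the proteins that bind it. In mitophagy, the kinase PINK1 builds up on damaged mitochondria and marks them for clearance, whereas BNIP3 and BNIP3L (NIX) are outer membrane receptors that bind LC3-family proteins directly. TFAM packages and transcribes mitochondrial DNA, and NRF1 (nuclear respiratory factor 1) is a transcription factor for nuclear genes of the respiratory chain. BNIP3L is known for clearing mitochondria from maturing red cells, and mitofusin 2 has been studied in HSCs with lymphoid potential.

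The promoters that the results turn on are shown as RefSeq gives them (GRCm38.p6, the same build as mm10, which the submitters' processing notes name), 5′ to 3′ on the strand of the gene. *Mfn2*, *Fis1* and *Nrf1* are shown because their promoter peaks were the 3 at which both KO libraries stood on one side of both controls. The other 5 are shown for the motif that each holds near its start. Capitals mark a motif match on either strand: CCGGAAG (ETS family, such as GABPA), the 10-base NRF1 core (GCGC, then any base, then TGCGC) or CACGTG (E-box). The *Mfn2* and *Nrf1* stretches have no capitals because they hold none of these motifs.
Mfn2 (chr4:147904910-147905009, minus strand): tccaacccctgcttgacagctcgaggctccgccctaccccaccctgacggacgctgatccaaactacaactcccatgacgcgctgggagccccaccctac
Fis1 (chr5:136953175-136953274, plus strand): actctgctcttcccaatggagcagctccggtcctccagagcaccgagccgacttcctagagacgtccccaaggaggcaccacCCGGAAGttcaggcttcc
Nrf1 (chr6:30047888-30047987, plus strand): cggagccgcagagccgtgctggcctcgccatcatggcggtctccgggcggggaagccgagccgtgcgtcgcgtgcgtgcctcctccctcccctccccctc
Mfn1 (chr3:32529362-32529451, plus strand): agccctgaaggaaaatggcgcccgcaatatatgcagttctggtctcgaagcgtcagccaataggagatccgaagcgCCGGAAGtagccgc
Tfam (chr10:71238073-71238102, minus strand): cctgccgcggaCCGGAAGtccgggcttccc
Opa1 (chr16:29579204-29579293, plus strand): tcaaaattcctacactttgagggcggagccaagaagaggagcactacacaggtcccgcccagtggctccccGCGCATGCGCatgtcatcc
Bnip3 (chr7:138909587-138909666, minus strand): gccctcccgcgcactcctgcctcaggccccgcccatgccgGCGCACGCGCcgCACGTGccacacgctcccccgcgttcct
Pink1 (chr4:138326297-138326396, minus strand): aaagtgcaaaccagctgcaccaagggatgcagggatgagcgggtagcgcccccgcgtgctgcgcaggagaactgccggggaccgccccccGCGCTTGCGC

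Peaks of the 4 libraries that overlapped by at least 1 bp were merged into regions. A region belonged to a gene if it lay in the gene or within 5000 bp of it. Each library's strongest summit in a region was given a percentile, from 0 to 100, among all regions that the library held. A percentile of 97 means that about 97% of the regions of that library ranked lower. Regions with equal −log10 p share the middle of their ranks. Weak peaks often had equal values, so their percentiles move in steps. Percentiles were used because −log10 p rises with read depth. They still depend on how many weak peaks a list holds, and the libraries held 152879 to 172740 ranked regions. Between genotypes they are called apart when both KO values lie above, or both below, both control values. An exact two-sided permutation test of 2 libraries against 2 cannot go below p = 0.33, so the genotypes were compared without a test, and nothing says that the libraries come from separate animals.

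The lists held 240940 to 277594 summits, and 35.1% to 46.8% of them had a −log10 q of at least 5, with KO 2 lowest in both. Of 8 stem and progenitor cell markers, 6 had their start in a region of all 4 libraries, among them *Kit* and *Slamf1*, and the start of *Mecom* was in no region. *Slamf1* was higher in KO, with percentiles of 62.4 and 63.5 in the controls and 79.5 and 69.8 in KO. *Kit* and *Tal1* were also higher in KO, with smaller differences, and *Procr*, *Hlf* and *Gata2* overlapped. The B cell markers *Pax5* and *Cd79a* also had peaks at their starts in all 4 libraries, and the start of *Ebf1* was in no region. *Pax5* had percentiles of 28.6 and 43.0 in the controls and 47.3 and 66.9 in KO. *Cd79a* had 28.0 and 52.2 in the controls and 70.2 and 46.1 in KO, and overlapped. Both granulocyte markers with a peak at the start were lower in KO, and the start of *Ly6g* was in no region. *S100a8* had 80.6 and 67.3 in the controls and 52.4 and 64.0 in KO, and *Camp* had 83.3 and 74.1 in the controls and 72.4 and 65.5 in KO. Of the T cell markers, 0 of 3 had a start in all 4 libraries, against 2 of 3 for erythroid cells, 2 of 3 for granulocytes and 1 of 3 for non-blood cells. The part of such cells in the results was not tested. The promoter of *Cpt1a* itself had percentiles of 94.7, 93.7, 94.7 and 95.6 in control 1, control 2, KO 1 and KO 2, which does not check the deletion because the sources used here do not place the deleted exons.

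The promoters of all 10 genes were open in every library, and among the strongest peaks of each. Their 10 regions held a peak in all 4 libraries, whereas the start sites of 61.2% of 17273 coding genes did. Over the 40 values their percentiles ran from 94.6 to 99.5, the authors' fold over background from 11.8 to 24.5, and the lowest −log10 q was 47.8. The median of the 10 promoters was 97.1 and 97.3 in the controls and 97.2 and 98.2 in KO, against 95.2 to 95.9 for all coding promoters held by a library. At both KO values above both controls stood 2 promoters (*Mfn2* and *Nrf1*; 20.7% of the 9790 coding promoter regions in all 4 libraries), at both below stood 1 (*Fis1*; 13.1% of them), and 7 overlapped. The median difference, KO minus control, was 0.23 percentile points over the 10 promoters and 0.136 over all coding promoters, smaller than the median range of 1.42 points over the 4 libraries at the 10 promoters. KO 2 was the highest library at 6 of the 10 promoters and KO 1 at 0, so the 2 KO libraries did not move together. Without KO 2 the median difference over the 10 promoters was -0.0666, and without KO 1 it was 0.662. In bulk libraries, fewer cells with an open site and less opening per cell cannot be told apart.

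**Figure D1:**
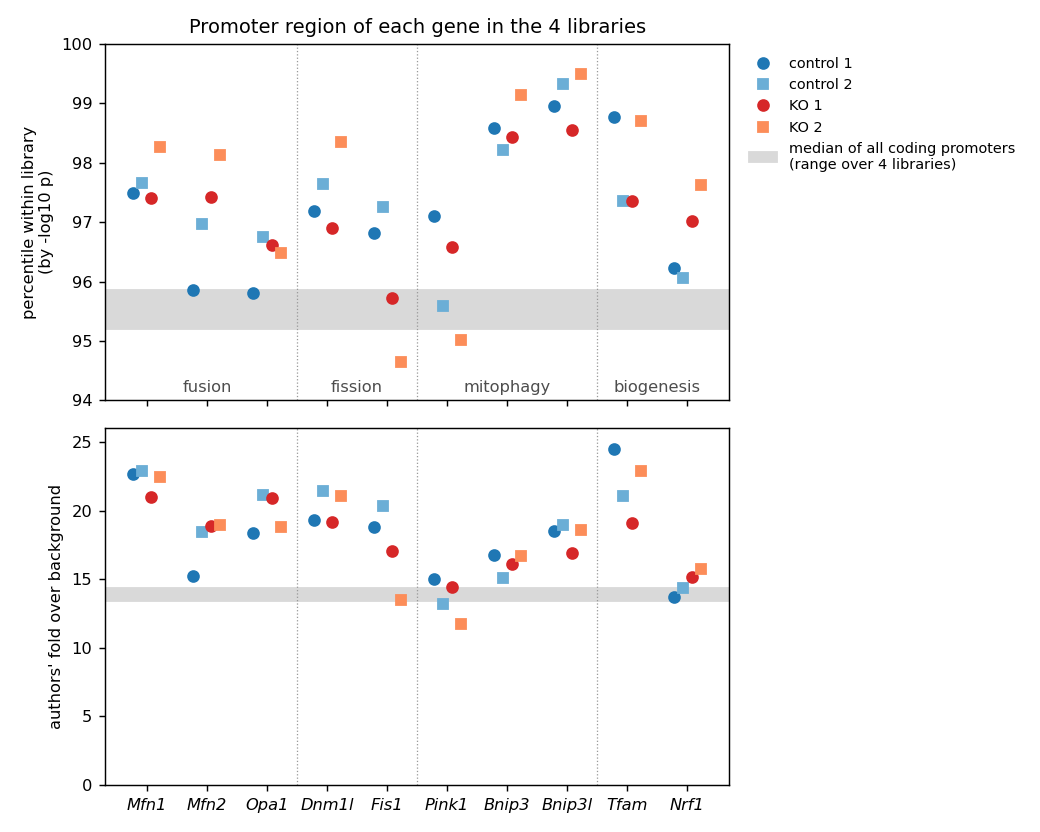
Percentile within the library (upper axis, 0 to 100 scale shown from 94 to 100) and the authors' fold over background (lower axis) of the promoter region of each of the 10 genes, with 1 point per library and the genes in order of their role. The grey band spans the medians of all coding promoters in the 4 libraries. In the upper panel *Fis1* and *Pink1* in KO 2 lie below the band, *Fis1* in KO 1, *Opa1* in control 1 and *Pink1* in control 2 lie in it, and the other points lie above it.

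Among the fusion genes, the promoter of *Mfn2* stood apart and those of *Mfn1* and *Opa1* did not. The *Mfn2* promoter region (chr4:147904412-147905361) had percentiles of 95.9 and 97.0 in the controls and 97.4 and 98.1 in KO, and folds of 15.2, 18.5, 18.9 and 19.0 in the same order. Its KO mean was 1.36 points higher, and control 1 was the library with the lowest fold. Without control 1 the difference was 0.786 points, and with only summits of −log10 q of at least 5 kept the genotypes overlapped. At *Mfn1* (chr3:32529180-32530043) the percentiles were 97.5 and 97.7 in the controls and 97.4 and 98.3 in KO. At *Opa1* (chr16:29579061-29579761) they were 95.8 and 96.8 in the controls and 96.6 and 96.5 in KO. In both genes the KO values fell within or on both sides of the control values.

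Fission gave the one promoter that was lower in KO. At *Fis1* (chr5:136952671-136954018) the percentiles were 96.8 and 97.3 in the controls against 95.7 and 94.6 in KO, a difference of -1.86 points, and the folds were 18.8 and 20.3 against 17.1 and 13.5. Peaks covered 1192 and 1278 bp of this region in the controls and 858 and 786 bp in KO, with 5 and 6 summits against 4 and 3. KO peaks narrower than both controls were common, at 42.1% of coding promoter regions in all 4 libraries, and were found at 4 of the 10 promoters (*Fis1*, *Pink1*, *Tfam* and *Nrf1*). Wider KO peaks were found at 1 of the 10, *Bnip3l*, against 4.77% of coding promoter regions. *Fis1* has a second annotated start inside the gene at position 136962077, in a region (chr5:136961654-136962871) that did not follow the first. Its percentiles were 96.2 and 95.7 in the controls and 95.9 and 97.3 in KO, so the 2 starts of *Fis1* were of like strength and only the outer one was apart. The promoter of *Dnm1l* (chr16:16358466-16359255) had 97.2 and 97.7 in the controls and 96.9 and 98.3 in KO, with the KO libraries on both sides of the controls.

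No promoter of the 3 mitophagy genes was apart between the genotypes. At *Pink1* (chr4:138325449-138326433) the percentiles were 97.1 and 95.6 in the controls and 96.6 and 95.0 in KO, and KO 2 had the lowest fold of the 40 values, 11.8. The promoter peak of *Bnip3* (chr7:138909129-138910247) stood at 98.6 and 98.2 in the controls and 98.4 and 99.1 in KO. That of *Bnip3l* (chr14:67008244-67009276) stood at 98.9 and 99.3 in the controls and 98.6 and 99.5 in KO, and was the strongest of the 10 promoters by mean percentile. *Bnip3* and *Bnip3l*, the receptor genes, ranked above *Pink1* in all 4 libraries.

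The biogenesis genes split. The promoter of *Tfam* (chr10:71237468-71238458) had 98.8 and 97.4 in the controls and 97.4 and 98.7 in KO, each genotype with 1 high and 1 low library, and folds of 24.5, 21.1, 19.1 and 22.9 in control 1, control 2, KO 1 and KO 2. At *Nrf1* (chr6:30047248-30048876) the percentiles were 96.2 and 96.1 in the controls and 97.0 and 97.6 in KO, a difference of 1.18 points, with folds of 13.7 and 14.3 against 15.2 and 15.7. The *Nrf1* peak was higher in KO although it was narrower there, covering 1348 and 1598 bp in the controls and 1078 and 1208 bp in KO. A second annotated start of *Nrf1*, at position 30076321, was in a region of KO 1 alone, with a percentile of 18.1.

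Within the promoter regions, the strongest summit kept its place across libraries to a differing degree. That of *Pink1* did not lie at the start but 560, 564, 565 and 561 bp into the gene in control 1, control 2, KO 1 and KO 2, a range of 5 bp. *Pink1* also had weaker summits within 52 bp of its start in every library, with folds of 8.10 to 10.3. The *Bnip3l* summit lay 68 to 75 bp upstream of the end of the gene and that of *Tfam* 57 to 68 bp upstream of its start. At *Bnip3*, 2 summits took turns, at 123 and 116 bp upstream in control 1 and KO 2 and at 189 and 193 bp in control 2 and KO 1, so the switch did not follow genotype. The *Bnip3* sequence above covers 81 to 160 bases before the start and so lies under or beside these summits. The *Fis1* summit lay 95 to 162 bp upstream and that of *Dnm1l* 39 to 52 bp into the gene.

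The promoters had the base composition of open promoters. In windows of 300 bases around the outermost start (250 before and 50 after), found for 9 of the 10 genes, the median GC content was 62.3%, from 53.0% at *Dnm1l* to 77.0% at *Nrf1*, with a median of 21 CpG dinucleotides. Coding genes whose start lay in a region of all 4 libraries had medians of 61.7% and 21, and those whose start did not had 47.0% and 3. The motif CCGGAAG was found in 3 of the 9 windows (*Fis1*, *Mfn1* and *Tfam*), against 12.1% of all coding genes and 18.0% of those open in all 4 libraries. The 10-base NRF1 core was found in 3 (*Bnip3*, *Opa1* and *Pink1*), against 6.74% and 10.6%, and GCGCATGC, which overlaps it, in *Opa1* alone, against 3.64% and 5.44%. *Bnip3* held CACGTG (8.01% and 10.6%) and the ACGTG of the hypoxia response element inside it (21.0% and 26.1%), and the CRE motif TGACGTCA was found in 0 of 9 (2.36% and 3.39%). Both strands were searched, and a match describes letters in the reference, not binding.

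Away from the promoters, the 10 genes held far more variable peaks. In all, 122 merged regions lay in or within 5000 bp of them, with the 10 promoters counted in. Of these, 78 (63.9%) were seen in 1 library only, as were 59.3% of all 337776 merged regions. These 78 were spread over the libraries as 16 in control 1, 15 in control 2, 20 in KO 1 and 27 in KO 2, and they were weak, with a median percentile of 22.4 and none above 61.8. Of the 44 regions in at least 2 libraries, 35 (79.5%) were in all 4, against 58.4% of the 137553 such regions in the genome. With only summits of −log10 q of at least 5 kept it was 19 of 29, against 67.6%. With the 100000 strongest summits it was 18 of 26, against 72.1%, so the higher share did not hold there. With all summits kept and without the 10 promoters, 25 of 34 (73.5%) were in all 4, against 55.1% of regions that hold no coding start. The sets are not alike, because the 34 still include regions with a coding start. These are the region with the second *Fis1* start and a region beyond *Mfn2* with the starts of *Miip* and *Fv1*.

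Regions of 1 genotype were few. Only in control, meaning in both controls and neither KO library, were 2 of the 44 regions (4.55%, against 6.05% of all regions), and only in KO were 0 (against 3.47%). The first of the 2 lies upstream of *Pink1*, at -1114 bp from the start (chr4:138327342-138327477), with percentiles of 0.735 and 10.6, near the lower end of what the lists hold. The other lies beyond the far end of *Bnip3l* (chr14:66984198-66984352), with percentiles of 56.9 and 27.4 and −log10 q of 3.51 and 1.70. Both were weak peaks, and the *Pink1* one had −log10 q of 0.306 and 0.734. Of the other 7, seen in 2 or 3 libraries of both genotypes, one in *Nrf1* 14744 bp from the start had 19.8 in control 1, no peak in control 2, and 52.4 and 53.5 in KO. Others leaned the other way, such as one in *Mfn2* at 30416 bp with 55.6 in control 1 and 9.54 in KO 1, and one beyond *Nrf1* at 107318 bp with 49.7 in control 1 and 13.4 in KO 1, each with no peak in the other 2 libraries.

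**Figure D2:**
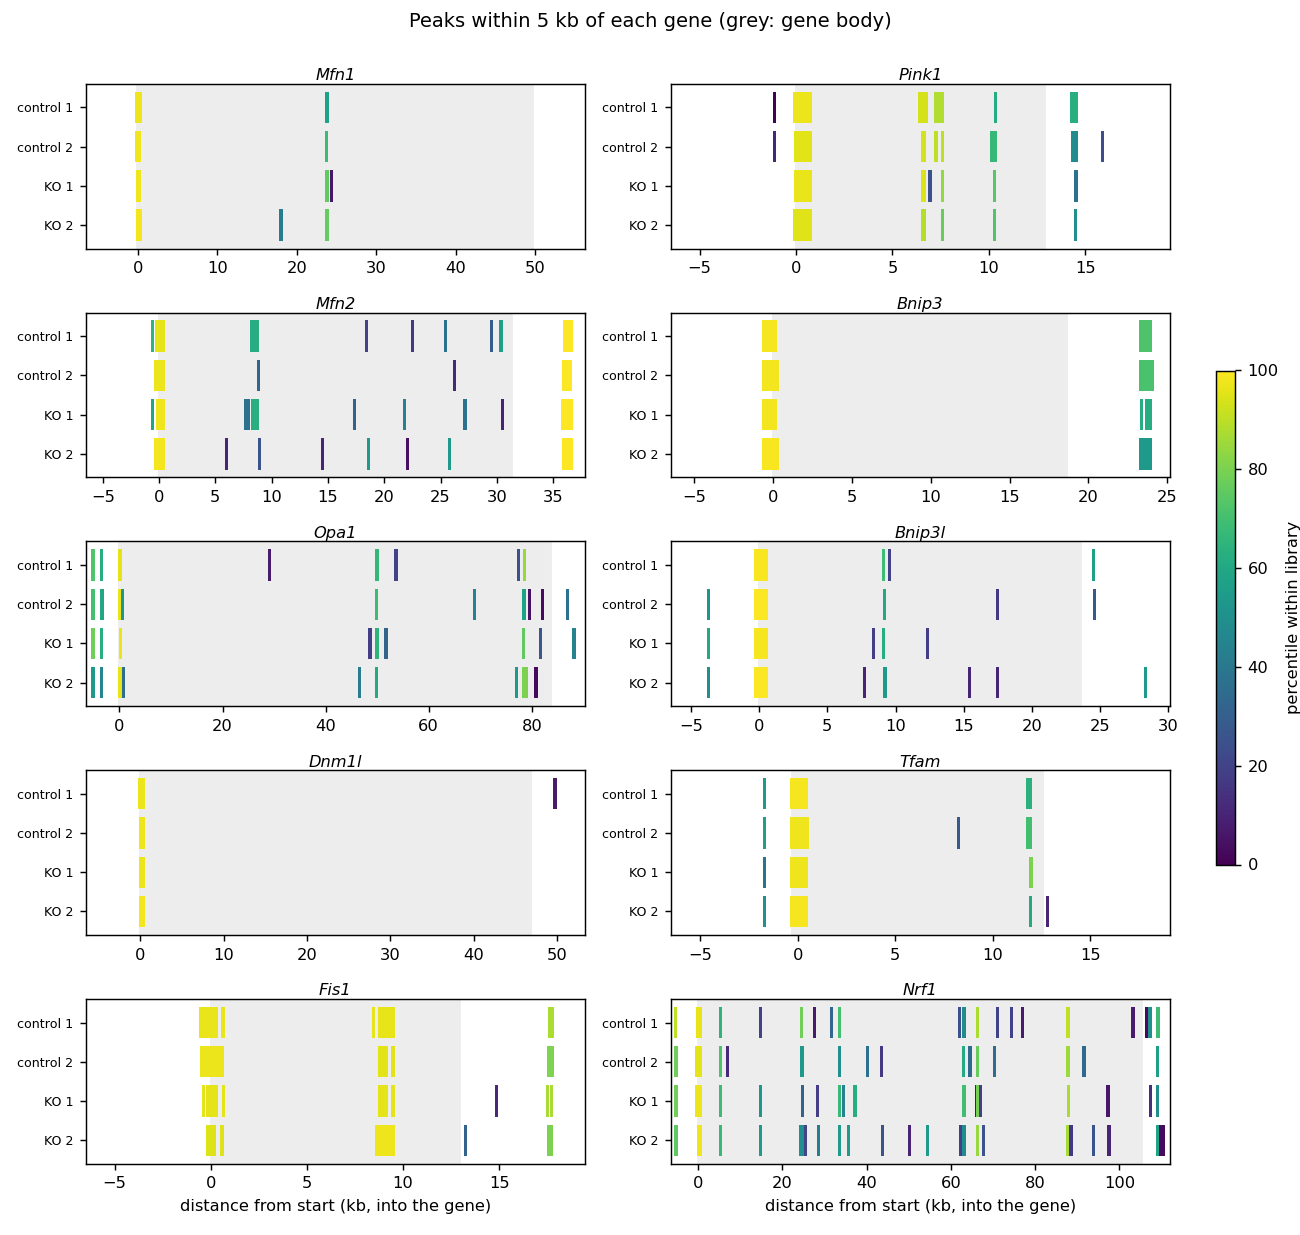
Peaks of each library in and within 5000 bp of each of the 10 genes, by distance from the start in the direction of transcription (kb), colored by the percentile of the region in that library, with the gene body in grey. Narrow peaks are drawn at a minimum width so that they can be seen. The start is yellow in every row, while most peaks inside *Nrf1*, *Opa1* and *Mfn2* are dark and appear in 1 row only.

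The genes differed in how many regions they held. *Nrf1*, the longest at 105474 bp, held 43 regions, of which 31 were in 1 library and 9 in all 4. *Opa1* held 22 with 5 in all 4, and *Mfn2* 20 with 3 in all 4. *Pink1*, at 12888 bp one of the shortest, held 8 regions with 5 in all 4, the same count as *Opa1* in a gene of 83847 bp. Among those of *Pink1*, the region at 14398 bp from the start (chr4:138311694-138312102) lies beyond the gene and overlaps the neighbouring gene *Ddost*. *Dnm1l* had nothing but its promoter in more than 1 library, over a gene of 46811 bp.

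Among the 35 regions in all 4 libraries, KO was higher at 5 (14.3%, against 19.2% of 80271 such regions), lower at 6 (17.1%, against 17.6%), and overlapping at 24. Over the 25 that are not promoters, 3 were higher, 5 lower and 17 overlapped, with a median difference of -1.80 points. Their median range over the 4 libraries was 16.9 points, against 13.4 for all regions in all 4 libraries that hold no outermost coding start. The 25 include the region with the starts of *Miip* and *Fv1*. The count of regions apart was thus near the share in the genome in both directions.

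**Figure D3:**
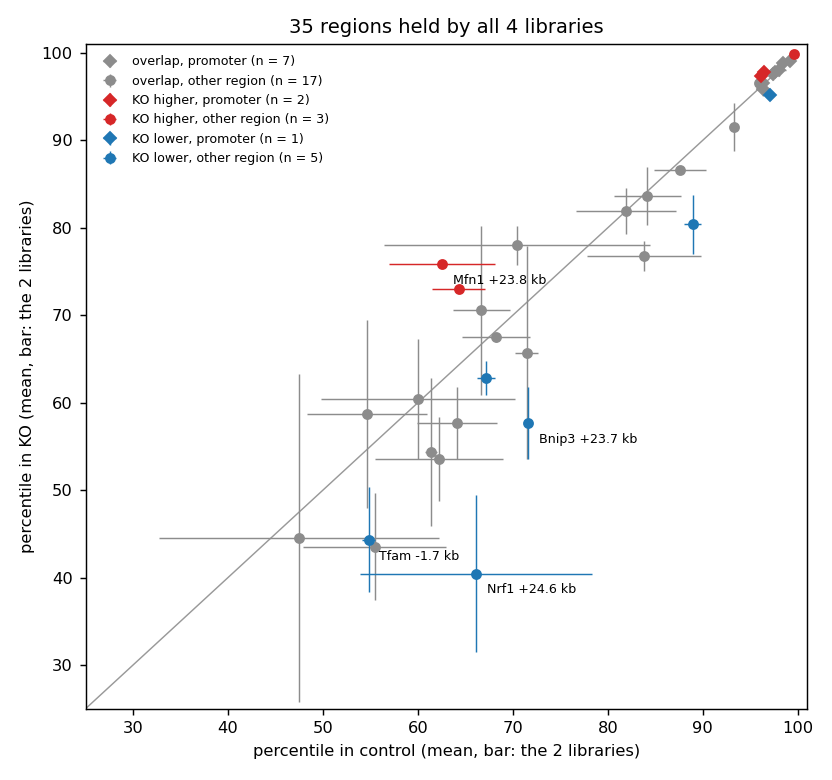
Mean percentile in KO against mean percentile in control for the 35 regions in all 4 libraries, where bars span the 2 libraries of a genotype, diamonds are promoters and circles other regions, and the line marks equal values. Promoters crowd at the upper right on the line, and below a percentile of about 90 the bars lengthen and 5 circles lie apart below the line and 2 above it.

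The regions that were apart belong to most of the genes and to both directions. In *Mfn1*, a region 23811 bp into the gene (chr3:32553215-32553371) had 56.9 and 68.1 in the controls and 75.8 and 76.0 in KO. Beyond the far end of *Mfn2*, a region with 99.8 and 99.4 in the controls and 99.9 and 99.9 in KO (chr4:147868106-147869115) holds the starts of the neighbouring genes *Miip* and *Fv1*. That region cannot be ascribed to *Mfn2*, although it was the strongest in the set. In *Opa1*, a region 49964 bp from the start had 66.2 and 68.1 in the controls and 64.8 and 60.9 in KO, and the strongest one away from the promoter, at 78584 bp, had 84.4 and 56.4 in the controls and 75.8 and 80.2 in KO and overlapped.

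*Pink1*, which had no promoter difference, had regions inside the gene that were apart in opposite directions. At 7428 bp from the start (chr4:138318600-138319136) the percentiles were 88.0 and 89.9 in the controls and 83.8 and 77.0 in KO. At 10244 bp (chr4:138315878-138316227), where the annotation also places the microRNA gene *Mir7019*, they were 61.5 and 67.1 in the controls and 73.5 and 72.5 in KO. The strongest *Pink1* region away from the promoter, at 6577 bp, had 93.6 and 93.1 in the controls and 94.3 and 88.8 in KO, with KO 1 above and KO 2 below both controls. Downstream of *Bnip3*, its one other region (chr7:138885364-138886318) was lower in KO, at 61.8 and 53.5 against 72.0 and 71.2 in the controls. In *Bnip3l* the strongest region away from the promoter, at 9192 bp, had 68.4 and 59.9 in the controls and 61.8 and 53.5 in KO, and overlapped. The KO values of these *Bnip3* and *Bnip3l* regions are equal because they are ties, at −log10 p of 6.52 in KO 1 and 4.66 in KO 2. Other weak regions share the same values, so the differences from the controls are steps of a low score.

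For the biogenesis genes, the regions apart away from the promoter were lower in KO. A region upstream of *Tfam*, at -1710 bp from the start (chr10:71239682-71239826) had 54.1 and 55.5 in the controls and 38.3 and 50.3 in KO. In *Nrf1*, a region at 24576 bp (chr6:30072372-30072756) had 78.4 and 53.9 in the controls and 31.5 and 49.4 in KO, a difference of -25.7 points between genotypes, with the 2 controls themselves 24.5 points apart. So *Nrf1* had a promoter higher in KO and an inner region lower in KO. The strongest other region of *Nrf1*, at 87779 bp, had 90.4 and 84.8 in the controls and 86.7 and 86.4 in KO. That of *Tfam*, at 11863 bp, had 63.7 and 69.7 in the controls and 80.2 and 60.9 in KO, and both overlapped.

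The wider pathway was read from 4 lists with 62 further genes, which held 358 regions in at least 2 libraries. Of these, 28 (7.82%) were seen only in control, against 13 (3.63%) only in KO, near the 6.05% and 3.47% of all regions. Of the 231 in all 4 libraries, 48 (20.8%) were higher in KO and 30 (13.0%) lower, against 19.2% and 17.6% of all such regions. The list of mitophagy genes, 26 in number, held 17 regions only in control (9.19%) and 2 only in KO (1.08%) among 185. They include *Atg7*, which encodes an autophagy enzyme, with 3 only in control and 1 only in KO. The 16 genes of biogenesis and mitochondrial DNA held 4 only in control (4.21%) and 9 only in KO (9.47%) among 95. Neither list was tested against the 6.05% and 3.47% of all regions. Of those 9, *Ppargc1a* and *Ppargc1b*, which encode the coactivators PGC-1α and PGC-1β, held 3 each, *Gabpb1* 2 and the helicase gene *Twnk* 1, and *Ppargc1a* also held 2 only in control. The fusion and inner membrane list had 3 only in control (2 of them at the protease gene *Oma1*) and 1 only in KO among 33, and the fission list 4 and 1 among 45, with *Dnm2* at 2 and 1. Of the 52 genes with an annotated start, 50 had it in a region of all 4 libraries, against 61.2% of coding starts. Of these 50, 11 were higher in KO and 5 lower, against 20.7% and 13.1% of coding promoters, and 34 overlapped. With the 100000 strongest summits per library, the regions of 1 genotype came down to 1 only in control and 5 only in KO. The shares of all regions at that setting were 2.75% and 3.11%. The number of pathway regions held there is not given, so these counts cannot be set against the shares.

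**Figure D4:**
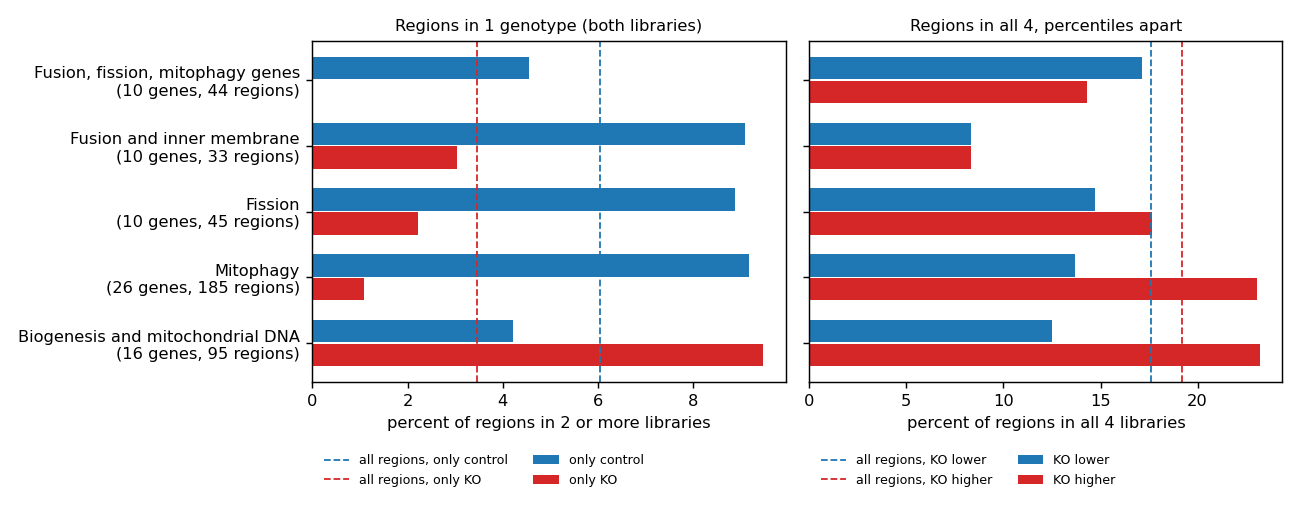
Percent of regions only in control (blue) or only in KO (red) among regions in at least 2 libraries (left), and percent lower (blue) or higher (red) in KO among regions in all 4 libraries (right), for the 10 genes and 4 lists of further pathway genes, with dashed lines at the shares over all regions. The 10 genes lie below the dashed lines in all 4 bars, and biogenesis is the one list with more regions only in KO than only in control.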

How the data were processed

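ATAC-Seq peak lists of 2 control and 2 KO libraries were used. The submitters' processing notes name Bowtie2, MACS2 and mm10, and versions are not given in the sources used here. Peaks were called per library, not on pooled samples, and for each summit the authors deposited a fold (the ratio of signal to background of that library), −log10 p, −log10 q and a score. The deposited score was not used. The lowest −log10 p was 2.0. Between 253 and 492 summits of a list were deposited as a chromosome position rather than an offset, and were read so. The lists hold no counts, so depth and precision are unknown, and the count test of the study (DiffBind with edgeR) could not be run.

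Intervals on the 19 autosomes and X were merged (at least 1 bp) in Python 3.11.15 (pandas 2.3.3, numpy 2.4.6), checked with bedtools 2.31.1 and tested on simulated data. Regions in at least 2 libraries were compared, and the −log10 p of the strongest summit was ranked within each library. Groups were taken from the labels. Gene positions and promoter windows are RefSeq's (GRCm38.p6), and the end of the gene stood in for the start of *Bnip3l*. All 10 genes are reported, each with its promoter, its strongest other region and its regions of 1 genotype, and further pathway genes if they have a region of 1 genotype (examples are given, and a gene that this rule covers is not reported here). Regions apart between the genotypes were named in addition, after their values were seen. Of the 64 pathway symbols fixed, 62 genes resulted. The covered length of promoter peaks was added after the files were seen. The genes, lists and alternatives were chosen with earlier results of these data known. Alternatives were a −log10 q of at least 5, lists of equal length, the 100000 strongest summits, a covered share of at least 0.5, flanks of 1000 and 0 bp, ranking by fold or among summits, and leaving out each library.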

Additional observations from a re-analysis of the deposited data

How the results depend on the processing

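With 2 libraries per genotype and no counts, the number of regions of 1 genotype moved with the settings, and the cause was not tested. The number only in control (2 of 44, against 6.05% of all regions) was 1 of 42 with lists of equal length, against 4.75%. It was 1 of 26 with the 100000 strongest summits, against 2.75%, and 5 of 39 with a covered share of at least 0.5, against 11.3%. With flanks of 1000 bp it was 1 of 32 and without flanks 0 of 30, both against 6.05%. That only in KO (0, against 3.47% of all regions) was 1 of 42 with lists of equal length, against 3.9%. Regions in all 4 libraries (35 of 44, against 58.4% of all regions) were 19 of 29 at a −log10 q of at least 5, against 67.6%. They were 18 of 26 with the 100000 strongest, against 72.1%, and 23 of 39 with a covered share of at least 0.5, against 39.6%. With lists of equal length they were 35 of 42, against 61.2%. At that −log10 q and with the 100000 strongest, the share was thus not above that of all regions. KO was higher at 2 regions (5 as reported) at that −log10 q and 3 with the 100000 strongest. It was lower at 10 (6 as reported) when ranked among summits and 3 with the 100000 strongest. The shares over all regions moved too, to 6.48% higher and 36.9% lower at that −log10 q and to 15.4% and 22.6% when ranked among summits. With the 100000 strongest they were 21.5% and 17.3%. For the further pathway genes, regions only in control (28) were 7 at that −log10 q, 16 with lists of equal length and 1 with the 100000 strongest. The shares of all regions there were 7.02%, 4.75% and 2.75%. Those of the pathway genes only in KO (13) were 1 at that −log10 q and 5 with the 100000 strongest, where the shares of all regions were 0.807% and 3.11%. The median promoter difference (0.23) was -0.63 at that −log10 q and -0.0384 when ranked by fold, so its sign changed. Percentiles also moved with list length. With lists of equal length, control 1 went from 95.9 to 94.9 at *Mfn2* and from 96.2 to 95.4 at *Nrf1*, while KO 2 stayed at 98.1 and 97.6.

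Leaving out 1 library leaves a genotype whose single peak is enough, so these counts grow by construction. Regions only in control numbered 2 to 18, with 18 of 109 without control 1 and 18 of 107 without control 2. Over all regions these shares were 15.8% and 20.6%. Regions only in KO numbered from 1 to 27, with 27 of 102 without KO 1 and 20 of 96 without KO 2, against 21.5% and 21.2%. Higher in KO were 8 to 12, against 28.5% to 40.3% of all regions in every library left. Lower in KO were 8 to 16, against 25.9% to 38.2%. The median promoter difference was -0.0666 (without KO 2) to 0.662 (without KO 1). *Mfn2* (0.786 to 4.10), *Nrf1* (0.877 to 3.46) and *Fis1* (-7.41 to -1.30) kept their direction in the 8 alternatives computed for promoter differences, which leave out lists of equal length and the covered share. *Mfn2*, *Nrf1* and *Fis1* were picked because both KO values lay on one side of both controls, so leaving out a library could hardly reverse them. The other alternatives reread the same 4 libraries, so the kept direction is no independent support. No paired analysis was possible because the results come from no test, and regions were called higher or lower against both controls, not within numbered pairs.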
